A study of Mus musculus with 12 samples.

Results

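Interferon-stimulated genes are the genes that interferons switch on: antiviral effectors, nucleic acid sensors, GTPases that attack pathogen-containing vacuoles, and parts of the antigen-processing machinery. A list of 58 mouse genes of this class was matched by symbol to a table of normalised read counts, and the 45 whose mean over all 12 libraries was at least 10 were analysed, among 11484 genes of 24411 rows that passed the same minimum. The cells were BALB/c mouse bone marrow cells that carry mutant CSF3R and mutant CEBPA through a retrovirus and that the labels call leukaemia cells, grown in IMDM with serum. Every group carried both mutations, so there was no unmutated or untransduced comparator. The groups were 50 nM ruxolitinib, 2 nM GSK-LSD1, the combination of both at those doses, and DMSO vehicle, each for 24 h and each with 3 libraries. Ruxolitinib inhibits the kinases JAK1 and JAK2, and GSK-LSD1 inhibits the histone demethylase LSD1. The labels name no added interferon. They do not say whether replicates were separate cultures, so the p-values measure only the spread between these libraries, which may be technical.

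Interferon receptors signal through JAK family kinases to STAT factors, which join IRF9 and bind the interferon-stimulated response element (ISRE) in type I responses. In the response to interferon-gamma a STAT dimer binds the gamma-activated site (GAS) instead. Many target genes are also driven by interferon regulatory factors without added interferon, which gives cells a tonic low level of expression. Ruxolitinib therefore acts on the kinases of this pathway, while LSD1 represses enhancers and promoters and, in myeloid leukaemia cells, is known for holding back differentiation genes.

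The values in each library were whole multiples of 1 step within a tolerance of 0.01, and these multiples summed to between 8260995 and 8528400 per library. Ruxolitinib replicate 2 and combination replicate 3 stood apart from their groups: replicate pairs with 1 of them differed by 5.71 to 7.13 times sampling noise (chi-square per degree of freedom), against 1.48 to 2.88 for the other pairs. Most counts, and the calls of some genes, are given below with and without both, and the remaining calls only with them. All 9 myeloid progenitor markers (Csf3r, Cebpa, Mpo and others) were above the minimum. None of 5 B cell markers and none of 6 conventional dendritic cell markers reached it. Of 6 plasmacytoid dendritic cell markers only Pacsin1 and Tcf4 did, and Klk1 was listed at 0 in all 12 libraries.

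The promoters of some members that the results turn on are shown first, since the ISRE and GAS are the elements through which this class is known to be regulated. RefSeq promoter windows (GRCm38.p6, from 250 bases before to 50 after a gene's start) were found for 43 of the 58 genes, and Rtp4, Oas2, Zbp1, Parp9 and Parp14 were among those without one in the table used here. Matches to the ISRE letters (GAAA, any 2 bases, GAAA) and to the GAS letters TTCNNNGAA were searched on both strands and are printed in capitals, and in 2 members an ISRE and a GAS match overlapped. Each sequence runs 5′ to 3′ on the gene's own strand, and offsets give the first base of a match, counted from 0 at the first transcribed base. Gbp2 (chr3:142620413-142620712, plus strand) holds 1 ISRE match at -59. Gbp5 (chr3:142496684-142496983, plus strand) holds an ISRE match at -165 and GAS matches at -245 and -52. Ddx58 (chr4:40239776-40240075, minus strand) and Ifih1 (chr2:62646206-62646505, minus strand) each hold an ISRE match inside the first transcribed bases, at 2 and 32. Ifitm6 (chr7:141016843-141017142, minus strand) holds a GAS match at -10. Isg15 (chr4:156200769-156201068, minus strand), shown as the textbook member of the class and chosen after its values were seen, holds 3 overlapping ISRE matches, at -78, -72 and -66. Every window shown holds a match, whereas those of other members called below, such as Dtx3l, Ifitm1, Ifi47 and Trim25, hold none and are not printed.
Gbp2: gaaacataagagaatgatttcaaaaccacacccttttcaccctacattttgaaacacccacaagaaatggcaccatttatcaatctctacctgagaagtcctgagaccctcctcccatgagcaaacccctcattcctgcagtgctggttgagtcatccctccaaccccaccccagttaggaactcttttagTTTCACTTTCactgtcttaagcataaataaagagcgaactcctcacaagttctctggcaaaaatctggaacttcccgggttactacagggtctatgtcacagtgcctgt
Gbp5: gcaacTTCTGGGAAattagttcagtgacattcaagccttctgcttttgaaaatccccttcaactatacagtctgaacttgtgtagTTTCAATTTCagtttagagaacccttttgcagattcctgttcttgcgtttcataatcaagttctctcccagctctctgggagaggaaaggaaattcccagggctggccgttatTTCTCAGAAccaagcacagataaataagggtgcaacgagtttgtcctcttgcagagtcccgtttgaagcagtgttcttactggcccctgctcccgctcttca
Ddx58: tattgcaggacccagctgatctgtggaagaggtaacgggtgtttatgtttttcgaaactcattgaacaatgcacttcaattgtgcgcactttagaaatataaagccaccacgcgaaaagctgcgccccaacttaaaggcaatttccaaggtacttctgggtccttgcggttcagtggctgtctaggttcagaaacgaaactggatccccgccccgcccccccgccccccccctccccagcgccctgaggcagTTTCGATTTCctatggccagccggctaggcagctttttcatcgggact
Ifih1: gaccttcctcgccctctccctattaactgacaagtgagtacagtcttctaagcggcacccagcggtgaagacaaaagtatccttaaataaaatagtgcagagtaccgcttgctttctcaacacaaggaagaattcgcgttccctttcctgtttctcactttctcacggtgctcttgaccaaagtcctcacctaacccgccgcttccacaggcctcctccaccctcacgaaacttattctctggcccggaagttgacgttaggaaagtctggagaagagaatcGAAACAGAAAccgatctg
Ifitm6: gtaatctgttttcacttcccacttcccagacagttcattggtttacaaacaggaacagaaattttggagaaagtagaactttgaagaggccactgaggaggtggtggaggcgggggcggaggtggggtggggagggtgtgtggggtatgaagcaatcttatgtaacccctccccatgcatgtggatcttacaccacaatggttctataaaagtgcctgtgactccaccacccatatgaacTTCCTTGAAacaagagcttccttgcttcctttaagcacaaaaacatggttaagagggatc
Isg15: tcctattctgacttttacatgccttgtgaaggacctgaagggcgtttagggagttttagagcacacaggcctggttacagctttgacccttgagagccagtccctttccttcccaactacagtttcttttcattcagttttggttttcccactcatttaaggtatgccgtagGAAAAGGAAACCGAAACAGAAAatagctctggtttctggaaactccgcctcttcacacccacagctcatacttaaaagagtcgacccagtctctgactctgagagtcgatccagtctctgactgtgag

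At least 1 ISRE match was present in 23 of 51 member windows (45.1%), against 1126 of all 32817 windows (3.43%). A GAS match was present in 15 of 51 member windows (29.4%), against 2722 of all windows (8.29%). Of the 10 members that GSK-LSD1 raised (below) and that have a window, 6 held an ISRE match (60.0%), as did 12 of the 26 other tested members (46.2%). GAS matches were in 4 of those 10 (40.0%) and in 11 of those 26 (42.3%). A match describes the letters only.

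Expression of the class was uneven across its members. Of the 58 genes, 13 were below the minimum: Gbp4, Gbp6, Ifit3 and Ifi44 were listed at 0 in all 12 libraries, and Gbp9, Iigp1, Oas1g, Oasl2, Ifit1, Mx1, Mx2, Rsad2 and Cmpk2 had means of at most 5.39. The 3 members just inside the minimum were Usp18 and Isg15 with means of 10.5 and Oas2 with 10.7, and Ifit1, at 5.39, was the nearest outside it. Usp18 and Oas2 passed only through the GSK-LSD1 libraries, since the other 9 averaged 9.64 and 8.61. Isg15, the ubiquitin-like modifier used as a standard readout of interferon signalling, had 13.9, 9.25 and 6.92 in ruxolitinib libraries, 13.0, 9.95 and 9.97 in GSK-LSD1 libraries, 13.9, 13.8 and 5.97 in combination libraries, and 12.9, 8.0 and 8.91 in DMSO libraries. The groups overlapped fully, and no comparison called it. The 12 interferon genes looked up, Ifnb1, Ifng and members of the alpha and lambda families among them, were listed at 0 in every library, which counting error alone allows for up to 3 counts in a library. At the other end stood the IFITM genes, membrane proteins that block the fusion of enveloped viruses. Per kilobase of the longest annotated transcript, Ifitm1 averaged 42868 with ruxolitinib, 43394 with GSK-LSD1, 45788 with the combination and 37753 in DMSO. Ifitm6, the mouse family member that varied most, averaged 439 per kilobase with ruxolitinib, 882 with GSK-LSD1, 1050 with the combination and 517 in DMSO. The IFITM, GBP and OAS genes are close paralogs whose reads could be divided differently by another counting, and the levels within these families are uncertain for that reason.

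Differences were tested with limma on log2(value + 1) over all 11484 genes with Benjamini-Hochberg adjustment, and a gene is said to rise or fall where its adjusted p was under 0.05. On this scale the changes of low genes are understated. Any difference among the 4 treatments was found for 23 of the 45 members by the F-test, against 42.8% of all genes tested.

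Ruxolitinib alone moved 1 member. Oas2, which makes the oligoadenylates that activate RNase L, fell, and no member rose, where 1.63% of all genes were called, 0.627% lower and 1.00% higher. The median log2 change of the 45 members was -0.012, against -0.001 over all genes. An unadjusted p under 0.05 was found for 8 members (17.8%) and for 17.5% of all genes. Oas2 had 2.98, 4.11 and 2.96 in ruxolitinib libraries, against 8.94, 10 and 11.9 in DMSO libraries. All 3 ruxolitinib libraries lay below all 3 DMSO libraries. The share of all genes whose groups did not overlap was not counted, so lack of overlap is only a description here and below. The log2 change was -1.38 ± 0.32 (SE, adjusted p = 0.0327), and -1.50 without the libraries that stood apart (adjusted p = 0.02). At about 3 to 12 counts a library this call was fragile: it was lost when any single ruxolitinib or DMSO library, or GSK-LSD1 replicate 2 or 3, was left out (adjusted p of 0.0547 to 0.152), and the deposited table does not say whether reads of Gm43068, annotated on the other strand, were separated. Rtp4, a chaperone of membrane receptors that is induced by interferon, had 2.98, 8.22 and 6.92 in ruxolitinib libraries, against 13.9, 9.0 and 12.9 in DMSO libraries. The groups did not overlap, and the log2 change of -0.94 ± 0.32 missed the threshold (adjusted p = 0.127). Oas3, another oligoadenylate synthetase, likewise had 15.9, 13.4 and 14.8 in ruxolitinib libraries, against 18.9, 25.0 and 19.8 in DMSO libraries (-0.49 ± 0.23, adjusted p = 0.263). Uncalled members also lay higher without overlap, Ifitm1, Ifitm2 and Tap2 among them. Ifitm1 had 37399, 40558 and 35472 in ruxolitinib libraries, against 34623, 33281 and 31990 in DMSO libraries. Tap2 had 1592, 1731 and 1736 in ruxolitinib libraries, against 1425, 1439 and 1580 in DMSO libraries. Log2 changes under ruxolitinib went with the GC content of transcripts across 11053 genes (Spearman's rho of 0.415, as a description). After a GC correction Bst2, the tetherin that holds virions on the cell surface, was called lower as well as Oas2 (-0.36, adjusted p = 0.0308, against -0.28 and 0.108 without it). With this correction 176 genes of the whole table were called lower, against 72 without it.

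**Figure D1:**
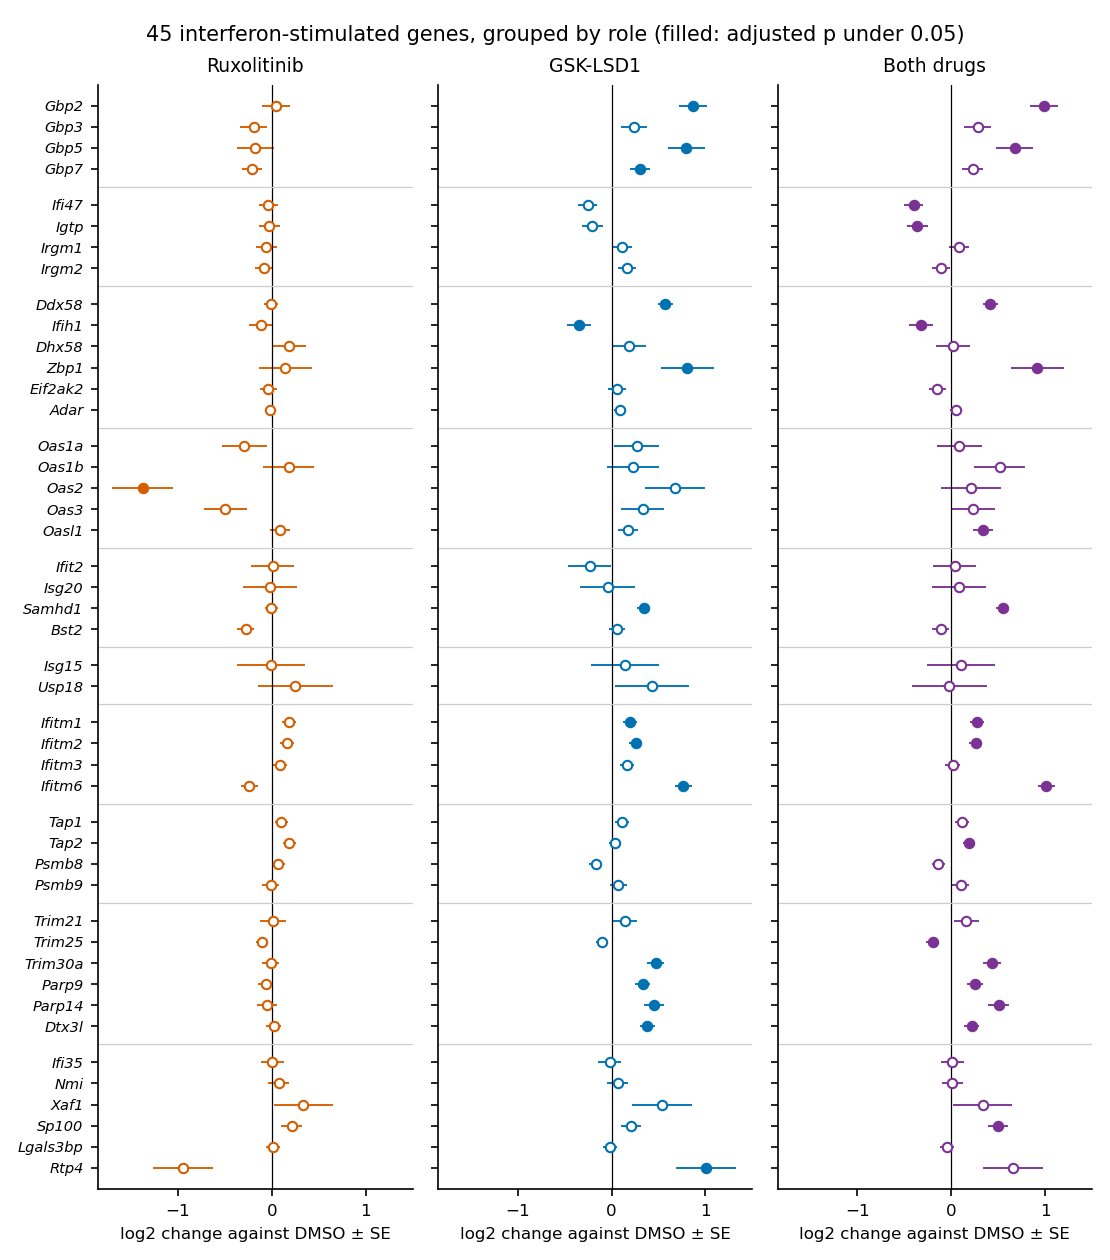
Log2 change against DMSO with its SE (x axis) for each of the 45 members (y axis, grouped by role) after ruxolitinib, GSK-LSD1 and both drugs; filled points passed the adjusted p of 0.05. Under ruxolitinib Oas2 alone is filled, while 14 members are filled to the right of 0 under GSK-LSD1 and 15 under both drugs.

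GSK-LSD1 alone raised 14 of the 45 members and lowered 1. The total called, 33.3%, was near the 32.5% of all genes called, and the split differed: 31.1% of members rose, against 17.0% of all genes, and 2.22% fell, against 15.5%. The members' median log2 change was 0.186, against -0.005 over all genes. Without the libraries that stood apart the counts were 15 and 3, with 2373 genes higher and 2505 lower over the whole table. After the GC correction they were 13 and 5, with 1702 genes higher and 3139 lower over the whole table. Fewer cells of a type and less RNA per cell cannot be told apart in such bulk libraries.

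Among the guanylate-binding proteins, GTPases that coat and disrupt pathogen vacuoles, 3 of 4 rose. Gbp2 had 77.9, 76.6 and 92.7 in GSK-LSD1 libraries, against 44.7, 43.0 and 45.6 in DMSO libraries. Every GSK-LSD1 library was above every DMSO library, with a log2 change of 0.87 ± 0.15 (adjusted p = 0.000132). Gbp5, which promotes assembly of the NLRP3 inflammasome, had 42.0, 53.8 and 58.8 in GSK-LSD1 libraries, against 28.8, 25.0 and 33.7 in DMSO libraries (0.80 ± 0.20, adjusted p = 0.00407). Gbp7 averaged 452 ± 21.1 in GSK-LSD1 libraries and 365 ± 26.2 in DMSO libraries (SD, n = 3 each). Its log2 change of 0.31 ± 0.11 (adjusted p = 0.0341 by limma) did not pass when GSK-LSD1 replicate 2 or 3 or DMSO replicate 1 or 3 was left out (0.0874 to 0.123). All 4 genes lie in 1 stretch of chromosome 3, between positions 142493978 and 142638008 (GRCm38). The immunity-related GTPases Ifi47 and Igtp, which act at the same vacuoles, did not rise: Ifi47 averaged 309.8 ± 20.0 in GSK-LSD1 libraries and 369.6 ± 27.8 in DMSO libraries, and its log2 change of -0.25 ± 0.10 missed the threshold (limma adjusted p = 0.063), which it passed without the libraries that stood apart (0.00954).

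Of 6 cytosolic sensors and enzymes of nucleic acid recognition, 2 rose, 1 fell and 3 (Dhx58, Eif2ak2 and Adar) gave no call, with log2 changes of 0.06 to 0.19. Ddx58, which encodes RIG-I, the sensor of short double-stranded RNA with uncapped ends, had 427.6, 424.0 and 464.7 in GSK-LSD1 libraries, against 291.0, 307.1 and 285.2 in DMSO libraries. The groups did not overlap, at a log2 change of 0.57 ± 0.08 (adjusted p = 9.95e-06). Zbp1, the sensor of left-handed nucleic acid that can trigger necroptosis, had 22.0, 29.9 and 23.9 in GSK-LSD1 libraries, against 14.9, 18 and 9.90 in DMSO libraries (0.81 ± 0.28, adjusted p = 0.031). That call was lost without GSK-LSD1 replicate 2 or 3 or DMSO replicate 1 or 3 (0.0539 to 0.159). Ifih1, which encodes MDA5, the sensor of long double-stranded RNA, had 122.9, 164.2 and 156.6 in GSK-LSD1 libraries, against 174.8, 203.1 and 182.2 in DMSO libraries. It was the 1 member that fell (-0.34 ± 0.13, adjusted p = 0.0448), is named here after its values were seen because it did not pass the F-test, and lost its call in 7 of 12 single-library omissions (0.051 to 0.24), those of ruxolitinib replicates 1 and 3, GSK-LSD1 replicates 1 and 3 and each DMSO library.

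Among direct effectors, Samhd1, a hydrolase that drains the nucleotide pool viruses need, had 785, 713 and 835 in GSK-LSD1 libraries, against 618, 602 and 615 in DMSO libraries. The log2 change was 0.34 ± 0.07 (adjusted p = 0.000782). Ifitm6 had 771, 629 and 751 in GSK-LSD1 libraries, against 439, 427 and 396 in DMSO libraries, the smallest adjusted p of any member here (0.76 ± 0.09, adjusted p = 1.61e-06). The groups were separated by more than either group's range. Ifitm2 changed by 0.26 ± 0.07 (adjusted p = 0.00736, 0.067 without GSK-LSD1 replicate 1). Ifitm1 changed by 0.20 ± 0.07 (adjusted p = 0.0394), a call lost without GSK-LSD1 replicate 1 or 3 or any DMSO library (0.0547 to 0.201) and after the GC correction (0.0935).

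Of 6 TRIM and PARP9-DTX3L genes, which modify signalling proteins with ubiquitin or ADP-ribose, 4 rose. Trim30a, a mouse TRIM protein known to restrain Toll-like receptor signalling, had 552.5, 562.4 and 574.4 in GSK-LSD1 libraries, against 426.0, 387.1 and 406.0 in DMSO libraries. The groups did not overlap, at a log2 change of 0.47 ± 0.09 (adjusted p = 0.0005). Parp14, an ADP-ribosyltransferase, had 205, 230 and 267 in GSK-LSD1 libraries, against 164, 169 and 176 in DMSO libraries (0.45 ± 0.11, adjusted p = 0.00305). Parp9 and the ubiquitin ligase Dtx3l, whose proteins form a complex, changed by 0.33 ± 0.08 (adjusted p = 0.00356) and 0.38 ± 0.08 (adjusted p = 0.000731). These genes overlap at their starts on opposite strands, so reads there may be shared between them, since the counting's use of strand is not given in the sources used here. Rtp4 had 23.0, 23.9 and 26.9 in GSK-LSD1 libraries, against 13.9, 9.0 and 12.9 in DMSO libraries. At 1.00 ± 0.32 this was the largest change of a member, and it passed (adjusted p = 0.0194) except without GSK-LSD1 replicate 2 or 3 or DMSO replicate 2 (0.0515 to 0.087). The antigen-processing genes Tap1, Tap2, Psmb8 and Psmb9 gave no call, with log2 changes between -0.17 and 0.11, and neither did the OAS family, whose 5 tested members lay between 0.18 and 0.68.

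**Figure D2:**
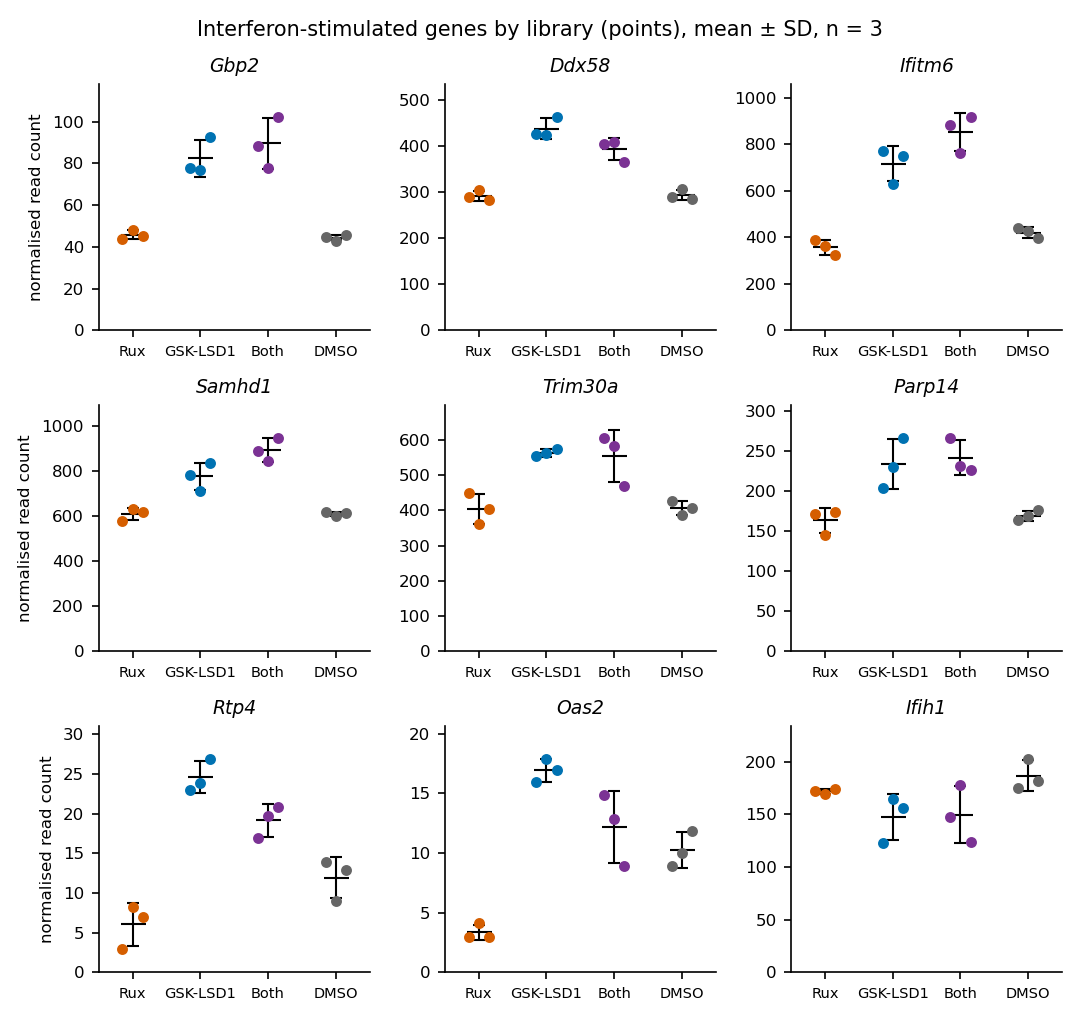
Normalised read count (y axis, from 0) in each library (points) for 9 members under ruxolitinib, GSK-LSD1, both drugs and DMSO, with mean and SD of 3 libraries. For Rtp4 and Oas2 the ruxolitinib libraries lie below and the GSK-LSD1 libraries above all DMSO libraries, while for Gbp2 and Ddx58 the ruxolitinib libraries lie at the DMSO level. Oas2 passed the minimum only through its GSK-LSD1 libraries, so their height supports nothing here.

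Opposite effects of the drugs were looked for member by member. No member was called higher after one drug and lower after the other against DMSO, and these comparisons share the DMSO libraries. In the direct comparison of GSK-LSD1 with ruxolitinib, which uses no DMSO library, 15 members were higher (33.3%) and 1 was lower (2.22%), against 13.6% and 11.8% of all genes (25.4% in either direction). The counts were 18 and 2 without the libraries that stood apart, with 1646 genes higher and 1463 lower in all. After the GC correction they were 15 and 4, with 1487 genes higher and 2584 lower in all. Rtp4 had 23.0, 23.9 and 26.9 in GSK-LSD1 libraries, against 2.98, 8.22 and 6.92 in ruxolitinib libraries, a log2 difference of 1.95 ± 0.32 (adjusted p = 0.000106). Oas3 differed by 0.83 ± 0.23 (adjusted p = 0.0101). Oas2 had 16.0, 17.9 and 17.0 in GSK-LSD1 libraries, against 2.98, 4.11 and 2.96 in ruxolitinib libraries (2.05 ± 0.32, adjusted p = 6.86e-05). Because Oas2 reached the minimum of 10 only through the GSK-LSD1 libraries, its differences that involve GSK-LSD1 are given as values and support nothing here. Oas2 is also 1 of the 15 counted higher above, so their 33.3% includes it. For Oas2 and Rtp4 the DMSO libraries lay between the groups without overlap. For Oas2 the larger departure from DMSO was the ruxolitinib one, and the GSK-LSD1 change of 0.68 ± 0.32 missed the threshold (adjusted p = 0.115). For Rtp4 the changes against DMSO were -0.94 for ruxolitinib and 1.00 for GSK-LSD1, and the GSK-LSD1 one passed. Bst2 averaged 280 ± 13.8 with GSK-LSD1 and 222 ± 20.0 with ruxolitinib (SD, n = 3 each), a difference of 0.34 ± 0.09 (limma adjusted p = 0.00753). The gene that was lower, Psmb8, a catalytic subunit of the immunoproteasome, averaged 1259 ± 67.8 with GSK-LSD1 and 1483 ± 44.3 with ruxolitinib (-0.24 ± 0.07, limma adjusted p = 0.0149). It lost its call without GSK-LSD1 replicate 2 or 3 (0.0514 to 0.0891). Gbp3, the fourth tested guanylate-binding protein, was higher by 0.43 ± 0.14 (adjusted p = 0.0301, 0.0681 without the libraries that stood apart), and its call was lost without ruxolitinib replicate 2 or 3 or GSK-LSD1 replicate 2 or 3 (0.0649 to 0.128).

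The combination raised 15 members and lowered 4 against DMSO, 33.3% and 8.89%, where 20.5% and 21.8% of all genes did so. The counts were 16 and 4 without the libraries that stood apart (2504 and 2749 genes in all). After the GC correction they were 13 and 7 (2019 and 3614 genes in all). With each library scaled to the same total they were 15 and 2 (2593 and 2144 genes in all). Without any 1 DMSO library 2 members were lower (2000 to 2053 genes in all). Gbp2 had 88.3, 77.9 and 102 in combination libraries, against 44.7, 43.0 and 45.6 in DMSO libraries (0.99 ± 0.15, adjusted p = 1.86e-05). Ifitm6 had 881, 761 and 919 in combination libraries, against 439, 427 and 396 in DMSO libraries, and its change of 1.01 ± 0.09 was the largest of a member in this comparison (adjusted p = 1.58e-08). Samhd1 changed by 0.55 ± 0.07 (adjusted p = 2.52e-06), Ddx58 by 0.42 ± 0.08 (adjusted p = 0.000207) and Parp14 by 0.50 ± 0.11 (adjusted p = 0.000822). Sp100, a component of PML nuclear bodies, had 274, 270 and 277 in combination libraries, against 212, 206 and 166 in DMSO libraries (0.50 ± 0.11, adjusted p = 0.00098).

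The 4 members that fell with the combination were Ifi47, Igtp, Ifih1 and Trim25, a ubiquitin ligase that acts on RIG-I. Ifi47 had 319.4, 273.3 and 250.6 in combination libraries, against 399.2, 344.1 and 365.4 in DMSO libraries, with no overlap (-0.40 ± 0.10, adjusted p = 0.0035). Igtp had 130.9, 151.9 and 133.3 in combination libraries, against 158.9, 189.1 and 189.1 in DMSO libraries (-0.36 ± 0.11, adjusted p = 0.0125, 0.056 to 0.0573 without DMSO replicate 2 or 3). Igtp overlaps Irgm2 on the same strand, so reads of the pair may have been divided between them. Trim25 and Ifih1 did not pass the F-test and are named after their values were seen. Trim25 changed by -0.20 (adjusted p = 0.0197, 0.123 without DMSO replicate 1). Ifih1 changed by -0.33 (adjusted p = 0.0442), and by -0.20 without the libraries that stood apart (adjusted p = 0.188). Its call was lost in 8 of 12 single-library omissions (0.0503 to 0.215), those of ruxolitinib replicates 1 and 3, GSK-LSD1 replicate 3, combination replicates 1 and 3 and each DMSO library. Among the members that rose, Tap2, a subunit of the peptide transporter of antigen processing, passed at 0.0251 and missed at 0.647 after the GC correction, at 0.0505 without the libraries that stood apart, and at 0.0922 to 0.106 without combination replicate 3 or DMSO replicate 1 or 2.

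The effect of GSK-LSD1 was measured again in libraries that the comparison with DMSO did not use, the combination against ruxolitinib alone. It called 14 members higher and 3 lower (31.1% and 6.67%, against 16.0% and 15.6% of all genes). Without the libraries that stood apart it called 13 and 2 (1860 and 1865 genes in all). Without ruxolitinib replicate 2 or combination replicate 1 a single member was lower (1554 and 1359 genes in all). Both comparisons called 11 members, all in the same direction, 73.3% of the 15 called against DMSO and 64.7% of the 17 called here. Over all genes 2649 calls were shared in this way, 71.1% of those against DMSO and 73.1% of those here, so the members' shares were near the general ones. The 11 members were Gbp2, Gbp5, Gbp7, Ddx58, Zbp1, Samhd1, Ifitm6, Trim30a, Parp9, Parp14 and Rtp4, all higher. Ifitm6 had 881, 761 and 919 in combination libraries, against 387, 363 and 322 in ruxolitinib libraries (1.25 ± 0.09, adjusted p = 7.78e-10). Rtp4 had 16.9, 19.7 and 20.9 in combination libraries, against 2.98, 8.22 and 6.92 in ruxolitinib libraries (1.6 ± 0.32, adjusted p = 0.000571). Oas2 is 1 of the 14 counted higher here. It had 14.9, 12.8 and 8.95 in combination libraries, against 2.98, 4.11 and 2.96 in ruxolitinib libraries (1.59 ± 0.32, adjusted p = 0.000716), with the same limit from the minimum. Neither gene's groups overlapped. Calls that did not pass without the libraries that stood apart were those of Oas3 (0.018 with them, 0.129 without), Igtp (0.0274 and 0.104) and Zbp1 (0.0391 and 0.0522). Single omissions of combination replicate 1 or 3 also ended all 3 of these calls, as did ruxolitinib replicate 2 for Oas3 (0.0543 to 0.0609 over its omissions), ruxolitinib replicate 2 or 3 for Igtp (0.0575 to 0.113) and ruxolitinib replicate 1 or 3 for Zbp1 (0.106 to 0.136).

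**Figure D3:**
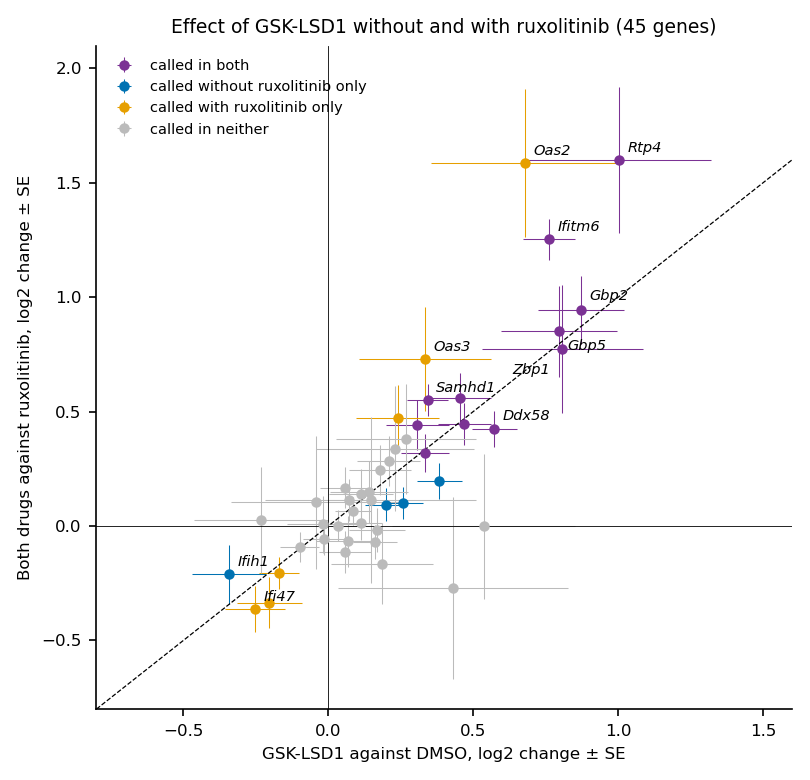
Log2 change with SE of each of the 45 members for GSK-LSD1 against DMSO (x axis) and for both drugs against ruxolitinib (y axis), coloured by where the adjusted p was under 0.05; the dashed line marks equal changes. On both axes 11 genes are called, Rtp4 and Ifitm6 among them. Oas2, which passed the minimum only through the GSK-LSD1 libraries, is called on the y axis only.

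The effect of ruxolitinib in the presence of GSK-LSD1, measured as the combination against GSK-LSD1, gave no call among the 45 members by limma, against 1.40% of all genes (1.05% higher and 0.348% lower), and 7 members (15.6%) had an unadjusted p under 0.05, against 12.3% of all genes. Ifitm6 and Samhd1 were at 0.25 ± 0.09 (adjusted p = 0.222) and 0.20 ± 0.07 (adjusted p = 0.198). Oas2 had 14.9, 12.8 and 8.95 in combination libraries, against 16.0, 17.9 and 17.0 in GSK-LSD1 libraries. All 3 combination libraries were lower, and the log2 change of -0.47 ± 0.32 missed the threshold (adjusted p = 0.59). The limit from the minimum applies to these Oas2 values and to its interaction term below. Rtp4 likewise had 16.9, 19.7 and 20.9 in combination libraries, against 23.0, 23.9 and 26.9 in GSK-LSD1 libraries (-0.35 ± 0.32, adjusted p = 0.709). The interaction term, which asks whether either drug's effect differed in the presence of the other, called no member by limma and 0.00871% of all genes. The unadjusted p was under 0.05 for 3 members (6.67%), Samhd1, Ifitm3 and Ifitm6, and for 4.65% of all genes. For Ifitm6 the term was 0.49 ± 0.13 (adjusted p = 0.659), and for Oas2 it was 0.91 ± 0.46 (adjusted p = 1.00).

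The rest of the pathway was followed with a list of 61 genes, of which 45 passed the minimum. GSK-LSD1 raised 16 of them (35.6%) and lowered 3 (6.67%), against 17.0% and 15.5% of all genes. The counts were 21 and 6 without the libraries that stood apart (2373 and 2505 genes in all). After the GC correction they were 13 and 7 (1702 and 3139 genes in all). Ruxolitinib alone moved none by limma, with 7 (15.6%) at an unadjusted p under 0.05, against 17.5% of all genes. With the combination 17 were higher (37.8%) and 3 lower (6.67%) against DMSO, where 20.5% and 21.8% of all genes were. Here the counts were 18 and 5 without the libraries that stood apart (2504 and 2749 genes in all). After the GC correction they were 15 and 9 (2019 and 3614 genes in all). In the combination against GSK-LSD1 the 1 gene called was Ptpn6 (0.28 ± 0.06, adjusted p = 0.00794), a call lost without GSK-LSD1 replicate 1 or 2 (0.0577 to 0.0631). Of the receptor chains 4 of 5 rose with GSK-LSD1. Ifngr2, the signalling chain of the interferon-gamma receptor, averaged 608 ± 5.57 in GSK-LSD1 libraries and 260 ± 22.3 in DMSO libraries (SD, n = 3 each), a log2 change of 1.23 ± 0.09 (limma adjusted p = 1.95e-09). The type I receptor chains changed less, Ifnar1 by 0.33 (adjusted p = 0.00253) and Ifnar2 by 0.36 (adjusted p = 8.56e-05). Irf9, the DNA-binding partner of STAT factors in type I responses, averaged 358 ± 28.9 in GSK-LSD1 libraries and 345 ± 9.41 in DMSO libraries (SD, n = 3 each), a log2 change of 0.05 ± 0.08 that missed the threshold (limma adjusted p = 0.648). Jak1 was at 0.14 ± 0.06 (limma adjusted p = 0.0807). Irf9 missed the threshold in every comparison with DMSO.

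Among the interferon regulatory factors Irf7, the main inducer of interferon-alpha genes, averaged 35.6 ± 4.95 in GSK-LSD1 libraries and 17.2 ± 2.39 in DMSO libraries (1.00 ± 0.21, limma adjusted p = 0.00111). Irf8, a myeloid lineage factor that also binds ISRE elements, averaged 62.8 ± 7.48 in GSK-LSD1 libraries and 29.8 ± 2.88 in DMSO libraries (1.05 ± 0.21, limma adjusted p = 0.000605). Irf1, an early target of interferon-gamma, changed by 0.37 ± 0.07 (adjusted p = 0.000182). Upstream, the endosomal RNA sensor Tlr8 averaged 51.5 ± 9.48 in GSK-LSD1 libraries and 15.2 ± 1.48 in DMSO libraries (1.68 ± 0.25, limma adjusted p = 3.53e-05), and Unc93b1, which carries such receptors to the endosome, changed by 0.57 ± 0.10 (adjusted p = 0.000153). The phosphatase gene Ptpn6 (0.47 ± 0.06, adjusted p = 1.83e-06) and the feedback inhibitor Socs1 (0.32 ± 0.09, adjusted p = 0.0082) rose too. The 3 that fell were Tyk2, Irf3 and Traf3, by -0.21, -0.18 and -0.22. Their adjusted p were 0.00826, 0.0495 and 0.00951. For Tyk2 and Traf3 they were 0.0522 and 0.0512 without DMSO replicate 2, and for Irf3 the call was lost in 9 of 12 single-library omissions. Of 9 class I antigen-presentation genes only Tapbp rose (0.24 ± 0.06, adjusted p = 0.004).

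**Figure D4:**
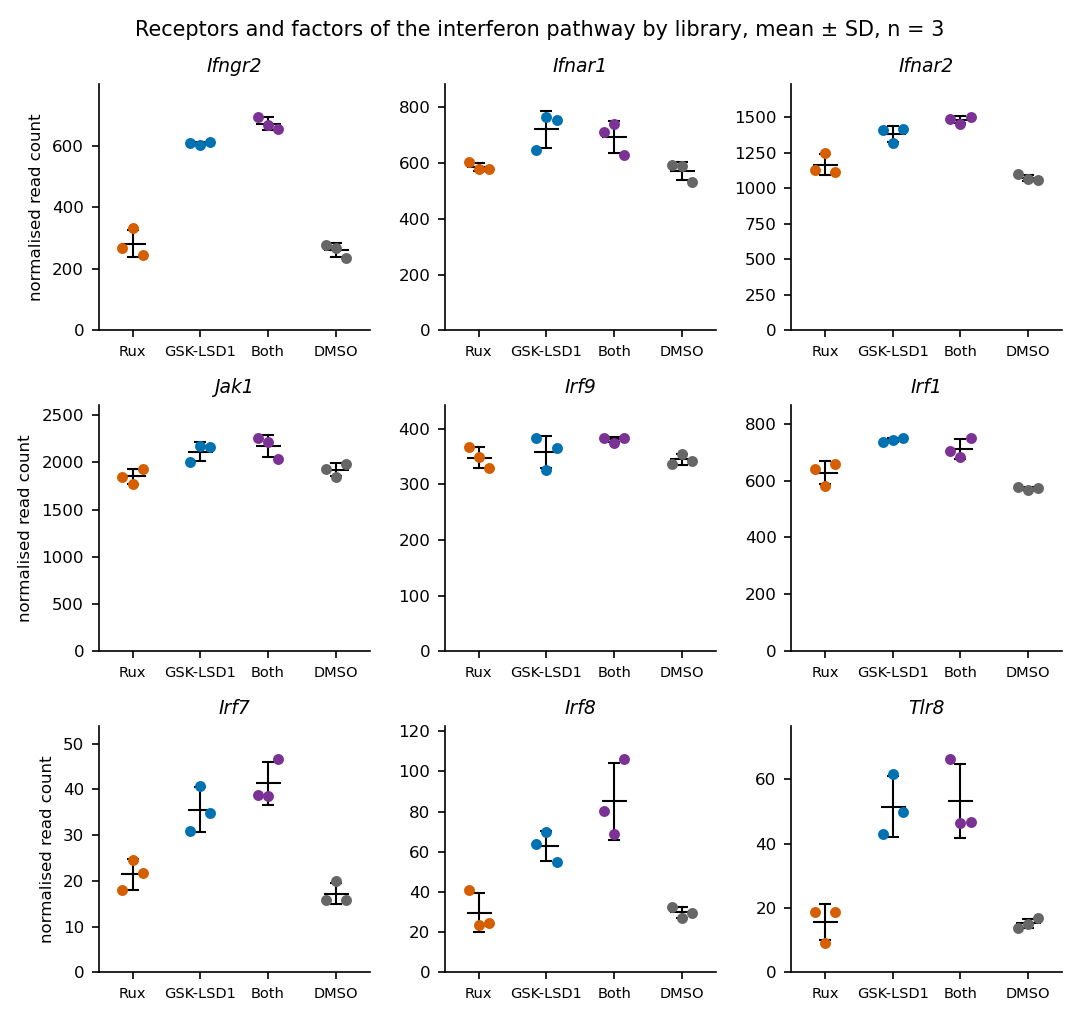
Normalised read count (y axis, from 0) in each library (points) for 9 receptors, factors and sensors of the interferon pathway under ruxolitinib, GSK-LSD1, both drugs and DMSO, with mean and SD of 3 libraries. Ifngr2, Irf7, Irf8 and Tlr8 are higher in every library with GSK-LSD1 than in every DMSO library, while the Irf9 libraries of GSK-LSD1 and DMSO overlap.

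Marker genes of the leukaemia cells and of other cell types differed between the same groups. Of the 9 myeloid progenitor markers, Mpo, Elane, Prtn3 and Ctsg rose with ruxolitinib (log2 changes of 0.50 to 0.89), where 1.00% of all genes rose. With GSK-LSD1 Elane, Prtn3 and Ctsg fell (-0.82, -0.73 and -0.69) and Ptprc and Kit rose (0.49 and 1.16). Of all genes 15.5% fell and 17.0% rose there. With the combination 4 of the 9 rose and 0 fell, where 20.5% and 21.8% of all genes did so. Mpo averaged 12307 with the combination and 6565 in DMSO, Elane 153 and 138, Prtn3 2163 and 2097, and Ctsg 1016 and 975. The summed count of 8 macrophage markers ranged over 129 to 161 in ruxolitinib libraries, 253 to 284 in GSK-LSD1 libraries and 292 to 332 in combination libraries, against 135 to 178 in DMSO libraries. Adgre1, Csf1r and Cd68 passed the minimum, and Adgre1 (0.88 ± 0.18, adjusted p = 0.000868) and Cd68 (0.72 ± 0.15, adjusted p = 0.000946) rose with GSK-LSD1, while the defining gene C1qb was listed at 0 in all 12 libraries. The sum of 6 plasmacytoid dendritic cell markers ranged over 499 to 580.5 in ruxolitinib libraries and 599 to 615 in GSK-LSD1 libraries. It was 526 to 650 in combination libraries and 515 to 534 in DMSO libraries. Pacsin1 carried the difference between GSK-LSD1 and DMSO (0.89 ± 0.14, adjusted p = 7.92e-05). Tcf4 was at 0.04 ± 0.10 with GSK-LSD1 (adjusted p = 0.804), and the other markers averaged at most 3.64 in any group. The sum of 8 T and NK cell markers ranged over 215 to 235 in ruxolitinib libraries, 228 to 269 in GSK-LSD1 libraries and 248 to 258 in combination libraries, against 175 to 207 in DMSO libraries, with Cd4 and Ncr1 listed at 0 throughout. For 6 markers of stroma and endothelium the range was 2916 to 3381 in ruxolitinib libraries, 3571 to 3817 in GSK-LSD1 libraries and 3823 to 3866 in combination libraries, against 2988 to 3073 in DMSO libraries, carried by Pecam1 and Col1a1, with Cxcl12 and Cdh5 listed at 0. The part of any of these cells, or of myeloid differentiation, in the changes of the interferon-stimulated genes was not tested.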

How the data were processed

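RNA sequencing of total RNA gave 12 libraries, and the authors deposited 1 table of normalised signal, gene by library, with a constant of 1e-05 added. For the authors' processing, the submitters' processing notes name STAR, DESeq2, mm10 and GRCm38 with no version or role, and the annotation and the use of strand are not given in the sources used here. From this table the constant was taken off, and 7367 of 24411 rows were 0 in all libraries. Another 27 symbols had been turned into dates, and 2 symbols occurred more than once. The whole multiples found after taking off the constant were used to describe depth, and no count model was run on these normalised values. The tests used limma 3.58.1 in R 4.3.3 (group means, trended variance, all 12 libraries) on log2(value + 1) for genes with a mean of at least 10. The tests were also run on simulated independent counts without outlying libraries or a GC trend, so that check does not cover these features of the data. P-values were adjusted by Benjamini-Hochberg over 11484 genes, with a threshold of 0.05.

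The members, the pathway list and the markers were chosen with earlier results of these data known. Members past the F-test were open to naming with their values, largest single-drug change first, and others were given by range except where stated. Gene positions are from GENCODE vM21 (GRCm38) and promoters from RefSeq (GRCm38.p6). Alternatives changed the pseudocount (0.25 or 5), the minimum (none or 50), the scaling, the GC correction (loess, span 0.3), the variance trend and the replicate block, and left out each library and both libraries that stood apart. Depth per library was alike, so counting error at a level of 10 is large in every group. One gene of the pathway list is not reported here.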

Additional observations from a re-analysis of the deposited data

How the results depend on the processing

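Of the 68 called changes of members, 45 held without any one library and 23 were lost without some library. Over all alternatives the single-gene results kept direction and side of the threshold 1485 times, missed it 128 times and newly passed it 1 time. The 1 reversal was Oas2 with the combination against DMSO, at -0.16 under quantile normalization, not called in either case, and the cause was not tested. Counts of members higher stayed within 1.5 times the reported ones, and the comparisons of the combination with GSK-LSD1 and the interaction stayed at 0. The counts of members lower moved. The counts of all genes lower moved too and are given in parentheses. For ruxolitinib against DMSO, reported as 1 (72), the count was 0 with a pseudocount of 5 (73) or quantile normalization (48). The count was also 0 with no minimum (38), a minimum of 50 (72) or the replicate block (39), where Oas2 was at a limma adjusted p of 0.0551. With the GC correction it was 2, without the block (176) or with it (130). With single libraries left out it was 0 to 1 (10 to 277). For GSK-LSD1 against DMSO, reported as 1 (1780), it was 0 with no minimum (1585), equal totals (1584) or no variance trend (1502). With the GC correction it was 5, without the block (3139) or with it (3051). It was 2 with the block (1648), 3 without both libraries that stood apart (2505), and 0 to 3 with single libraries left out (1228 to 2102). For the combination against DMSO, reported as 4 (2503), it was 2 with equal totals (2144). With the GC correction it was 7, without the block (3614) or with it (3537). With single libraries left out it was 2 to 4 (2000 to 2693). For the combination against ruxolitinib, reported as 3 (1793), it was 1 to 3 with single libraries left out (1359 to 1940). It was 2 with no variance trend (1467), with quantile normalization (1839) and without both libraries that stood apart (1865). For GSK-LSD1 against ruxolitinib, reported as 1 (1353), it was 4 with the GC correction, without the block (2584) or with it (2499). It was 0 with no variance trend (1045), 2 without both libraries that stood apart (1463), and 0 to 2 with single libraries left out (797 to 1719). The fewer genes tested with a minimum of 50, which drops Oas2, account for its lost call there, and the cause of the other moves was not tested.

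Replicate numbers did not pair the libraries: 1 of 18 same-numbered pairs had a correlation of deviations over 0.1 (-0.148 to 0.15), and 12 of 36 comparisons found the own number best correlated. Under the block Ifitm1 with GSK-LSD1 was lost (adjusted p = 0.0577) and Ifi47 was called lower (adjusted p = 0.0365). With 3 libraries a group and values near 10, changes of low members such as Isg15 and Usp18, with SE of 0.36 and 0.40 on the log2 scale, were not detectable at this depth unless large.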
